A study of Mus musculus with 20 samples.

Results

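The ribosome biogenesis and RNA polymerase I genes examined here were 55 genes chosen by name, from the transcription of ribosomal RNA to the export of finished subunits, among the 55487 genes listed in the count table. They comprised 6 genes of RNA polymerase I, 8 genes of small nucleolar ribonucleoproteins (snoRNPs) and the nucleolus, 20 genes of 40S subunit assembly and 21 genes of 60S subunit assembly. All 55 passed the filter on low counts, as did 12799 genes in all, and no member had fewer than 260 reads in any library.

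Messenger RNA was sequenced from 20 cultures of BV-2, an immortalised line of mouse microglia that carries retroviral raf and myc oncogenes. Every culture was labelled wild type, and the 4 groups of 5 were young untreated, aged untreated, young LPS and aged LPS. Aged cells had been kept in culture for a long time and young cells were low-passage controls of the same line, with aged aliquots frozen and later thawed beside the controls, so that age here is time in culture of 1 cell line and not the age of an animal. LPS (lipopolysaccharide), a bacterial cell wall component that activates microglia through Toll-like receptor 4, was given at 100 ng/ml for 6 hours. The labels number the cultures of each group 1 to 5 by batch. All levels below are CPM, reads scaled to a common library size by TMM, which aligns libraries on the bulk of their genes. Bulk RNA cannot tell fewer cells with a transcript from less transcript per cell.

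A ribosome is built mainly in the nucleolus. RNA polymerase I, brought to its promoter by UBTF and RRN3, makes the precursor of most ribosomal RNA, snoRNPs guide the chemical marking and folding of that precursor, and separate sets of assembly factors then turn it into the small (40S) and large (60S) subunits. Many of these genes are known targets of the transcription factor MYC, which binds the E-box letters CACGTG.

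The libraries held 11371508 to 16829292 counts, of which 0.517% to 1.3% were mitochondrial. The members together held a median of 1.40% of all counts in young untreated, 1.58% in aged untreated, 1.52% in young LPS and 1.65% in aged LPS cultures. All 12 microglia markers passed the filter on low counts (together 2546 to 4657 CPM). The homeostatic markers Cx3cr1 (at most 1.73 CPM, at 0 in 1 library) and P2ry12 (at most 1.87 CPM, at 0 in 3 libraries) were nearly absent. The 16 markers of neurons, astrocytes, oligodendrocytes, fibroblasts and endothelium summed to 0.912 to 2.11 CPM. Culture 1 of the young untreated group and culture 3 of the aged LPS group stood somewhat apart from their groups in a principal component view, and leaving either out is reported where it matters.

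Promoters were searched for the E-box because it is the sequence MYC is known to bind. Members with and without it were not compared in their response to LPS. RefSeq windows of 300 bases (250 before the start of transcription and 50 after it, GRCm38.p6) were matched to 46 of the 55 members. CACGTG, which reads the same on both strands, occurred in 12 of these 46 genes (26.1%), against 8.09% of all genes with a window and 12.2% of those tested here. It was in 6 of 18 members of 40S assembly, in 5 of 16 of 60S assembly, in 1 of 6 of RNA polymerase I and in none of 6 of the snoRNP group. Rrn3 was the 1 member with 2 such E-boxes, at 215 and 48 bases before its start. Its upstream sequence (chr16:13780449-13780698, plus strand) and 30 bases after the start of Ltv1 (chr10:13193092-13193121, minus strand), Utp20 (chr10:88826765-88826794, minus strand) and Nle1 (chr11:82908355-82908384, minus strand) are printed 5′ to 3′, with the E-box in capitals. These are the 4 members with an E-box among those named by the rule given below under data processing.
Rrn3: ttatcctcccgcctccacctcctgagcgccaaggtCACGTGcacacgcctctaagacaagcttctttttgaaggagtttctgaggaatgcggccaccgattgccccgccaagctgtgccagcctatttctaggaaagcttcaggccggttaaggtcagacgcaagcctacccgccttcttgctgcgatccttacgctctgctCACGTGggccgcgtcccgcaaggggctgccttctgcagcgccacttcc
Ltv1: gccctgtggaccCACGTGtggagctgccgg
Utp20: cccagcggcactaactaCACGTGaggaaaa
Nle1: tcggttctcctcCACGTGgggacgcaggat
The other members with an E-box were Nmd3, Mdn1, Nop2, Utp4, Pes1, Tsr1, Utp18 and Wdr43. Among the other letters searched on both strands, the ETS core CCGGAAG was in 41.3% of the members with a window (9.93% of all genes and 22.0% of those tested), and the NRF1 core, searched as 1 fixed string, in 0 of 46 (2.59% of the genes tested). These are matches of letters and no binding was measured.

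Averaged over the 55 members, the level in young untreated cultures was 7.20 ± 0.03 log2 CPM (SD, n = 5), with a range of 7.17 to 7.24. Aged untreated cultures stood at 7.35 ± 0.04 and lay between 7.29 and 7.40, above every young untreated culture. With LPS, the mean was 7.50 ± 0.03 in young and 7.55 ± 0.06 in aged cultures, whose ranges of 7.47 to 7.55 and 7.46 to 7.61 overlapped each other but not the untreated ranges. The RNA polymerase I genes did not follow this order, since their mean was 6.79 in young untreated, 6.90 in aged untreated, 6.79 in young LPS and 6.88 in aged LPS cultures. Per kilobase of merged annotated exons and averaged over all libraries, the highest members were the nucleolar proteins Npm1 (613 CPM per kb), Ncl (352) and Nolc1 (295). The lowest were the polymerase subunit Polr1e (5.87) and the ribosomal RNA methyltransferase Dimt1 (7.0). The merged exons span 10188 bases for Ncl and 2665 for Npm1, so this order depends on the annotation. Without this scaling, Ncl averaged 2952 and Npm1 1292 CPM in young untreated cultures.

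**Figure D1:**
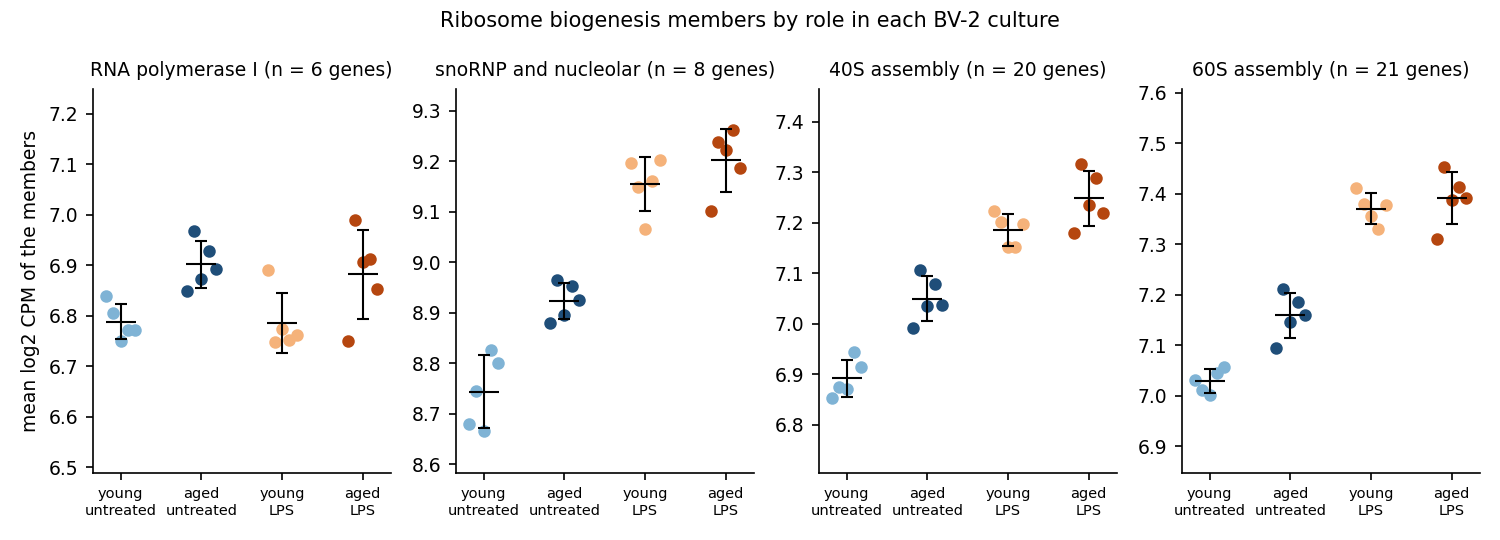
Mean log2 CPM of the members of each role (vertical axis; each panel has its own origin and the same span) in the 5 cultures of each group (points), with the group mean and SD (bars). The snoRNP, 40S and 60S groups were lowest in young untreated cultures and highest in LPS cultures, whereas the RNA polymerase I group averaged 6.79 in young cultures with and without LPS.

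The first comparison set the transcripts of aged against those of young cultures without LPS. Aged cells were also started from a later passage than the controls. Whether the long-term culture was itself repeated is not given in the sources used here. In aged against young untreated cultures, 22 of the 55 members were called higher (edgeR's quasi-likelihood test, Benjamini-Hochberg adjusted p below 0.05 over all genes tested) and 0 lower, where 3.71% of all genes tested were called higher and 7.81% lower. The median log2 fold change was 0.15 for the members and -0.01 for all genes tested, and 54 of the 55 members had a positive value, Mdn1 being the exception at -0.02 ± 0.10 (SE). The called members were 4 of 8 in the snoRNP group, 9 of 20 in 40S assembly, 9 of 21 in 60S assembly and 0 of 6 in RNA polymerase I. The changes were small, at most 0.29 on the log2 scale. In 15 members every aged culture lay above every young one (3.76% of all genes tested), and 35 members were higher in aged than in young in all 5 batches (11.3% of all genes tested).

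**Figure D2:**
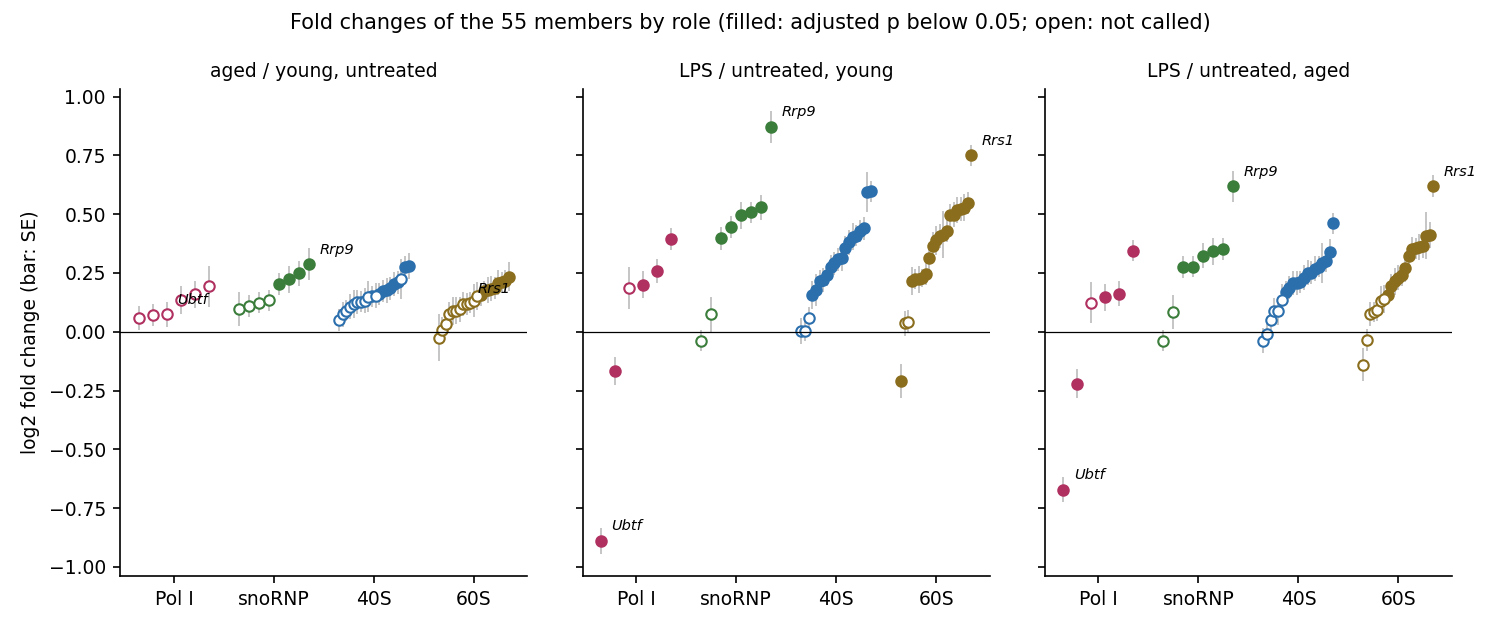
Log2 fold change (points; bars are SE) of each of the 55 members, ordered by size within its role, for aged against young untreated cultures and for LPS against untreated cultures of each age. Filled points had an adjusted p below 0.05. All but 1 of the age differences lie above 0, and in both LPS panels Ubtf lies far below the other members.

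Rrp9, the protein specific to the U3 snoRNP that directs the first cleavages of the precursor, had the largest rise with age. It measured 66.6, 61.6, 58.7, 68.5 and 75.7 CPM in young untreated and 73.9, 81.0, 82.2, 83.8 and 83.0 CPM in aged untreated cultures, a log2 difference of 0.29 ± 0.07 (adjusted p = 0.00698). The groups overlapped through aged culture 1, which lay below young culture 5. Rrp12, an export factor for pre-ribosomes, measured 123, 119, 122, 141 and 133 CPM in young and 151, 165, 143, 165 and 151 CPM in aged cultures (0.28 ± 0.06, adjusted p = 0.00221). Wdr75, a subunit of the small subunit processome that is needed for transcription of ribosomal DNA, measured 116, 124, 116, 122 and 132 CPM in young and 142, 150, 139, 156 and 151 CPM in aged cultures (0.27 ± 0.05, adjusted p = 8.25e-04). Neither Rrp12 nor Wdr75 overlapped between the ages.

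Ddx21, a nucleolar RNA helicase, rose by 0.25 ± 0.05 (adjusted p = 0.00396), from 414, 455, 431, 454 and 434 CPM in young to 474, 566, 516, 542 and 501 CPM in aged cultures. In 60S assembly, the pre-ribosomal factor Nip7 had the largest difference, with 80.4, 75.4, 77.3, 78.1 and 88.0 CPM in young and 89.1, 97.0, 95.7, 92.3 and 95.6 CPM in aged cultures (0.23 ± 0.06, adjusted p = 0.0157). Brix1, which acts with Rrs1 in early 60S particles, rose by 0.22 ± 0.05 (adjusted p = 0.00476), from 104 to 114 CPM in young to 118 to 136 CPM in aged cultures. Nip7, Brix1 and Ddx21 did not overlap between the ages. The abundant nucleolar proteins Npm1 and Ncl also rose, by 0.22 ± 0.06 and 0.20 ± 0.05 (adjusted p = 0.0132 and 0.00831).

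The members of RNA polymerase I were all higher on average in aged untreated cultures, by 0.06 to 0.19, but none passed the test. Polr1b, the second largest subunit, measured 205, 215, 211, 218 and 207 CPM in young and 213, 256, 231, 258 and 219 CPM in aged cultures (0.16 ± 0.06, adjusted p = 0.0726). The groups overlapped, and with batch as a block Polr1b passed the test (adjusted p = 0.0197). With the same block, 33 members were called higher and 0 lower (6.0% of all genes tested were higher), and all of the 22 were among them. The count of 22 depended on the cultures included. It was 4 without replicate 2 and 14 without replicate 5, whereas the median log2 fold change stayed between 0.13 and 0.16 without any 1 replicate, and Ddx21, Nle1, Rrp12 and Wdr75 were called each time.

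The second comparison was the response of young cultures to LPS. Of the 55 members, 44 were called higher and 3 lower by edgeR, against 31.2% and 33.5% of all genes tested, and the median log2 fold change was 0.31 for the members and -0.01 for all genes. The called members were 6 higher of 8 in the snoRNP group, 17 higher of 20 in 40S assembly, and 18 higher and 1 lower of 21 in 60S assembly. RNA polymerase I was split, with 3 higher and 2 lower of 6. In 39 members every LPS culture lay above every untreated one (23.9% of all genes tested), and in 1, Ubtf, every LPS culture lay below (25.2% of all genes tested). This comparison shares the young untreated cultures with the comparison of the ages above.

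The response of aged cultures gave 37 members higher and 2 lower by edgeR, against 27.5% and 26.9% of all genes tested, with a median of 0.21 for the members and 0.00 for all genes. Here 6 of 8 members of the snoRNP group, 14 of 20 of 40S assembly and 14 of 21 of 60S assembly were higher, and RNA polymerase I again had 3 higher and 2 lower. Every aged LPS culture lay above every aged untreated one in 32 members (21.0% of all genes tested) and below in 2 (19.1%). The 37 members higher in aged cultures were all among the 44 higher in young ones, and Ubtf and Polr1c were lower in both. How many of all genes higher in aged cultures were also higher in young ones was not counted. The study describes significant overlap of the LPS-regulated genes of aged and young cells beyond these genes. The overlap of calls is therefore not shown to be particular to the members. The size of the counts of members called depends on the scaling of libraries. With library sizes alone, the median of all genes shifted by -0.22 in young and -0.16 in aged cultures and the members gave 26 higher and 9 lower in young and 19 higher and 8 lower in aged cultures. Relative to the median of all genes, the members' median was 0.32 in both scalings in young and 0.21 in both in aged cultures. A change of scaling shifts all genes of a library alike, so these values had to stay nearly the same and test nothing.

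Within RNA polymerase I, the initiation factors moved apart. Ubtf, which encodes the architectural factor UBF that keeps ribosomal DNA open, measured 286, 302, 289, 303 and 299 CPM in young untreated and 168, 159, 151, 160 and 161 CPM in young LPS cultures. In aged cultures it measured 323, 332, 282, 316 and 303 CPM untreated and 179, 221, 191, 202 and 184 CPM with LPS. Every LPS culture lay below every untreated one, and the log2 fold change was -0.89 ± 0.05 in young (adjusted p = 1.71e-12) and -0.67 ± 0.05 in aged cultures (adjusted p = 3.70e-10).

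Rrn3, which makes the polymerase competent to initiate, went the other way. It measured 126, 132, 127, 119 and 124 CPM in young untreated and 166, 168, 163, 159 and 171 CPM in young LPS cultures (0.40 ± 0.05, adjusted p = 1.04e-07). The aged cultures measured 127, 147, 127, 132 and 128 CPM untreated and 160, 175, 163, 177 and 164 CPM with LPS (0.35 ± 0.05, adjusted p = 1.21e-06). All LPS cultures lay above all untreated ones at both ages.

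The subunits of the enzyme moved less. Polr1a, the largest subunit, rose by 0.26 ± 0.05 in young (adjusted p = 1.52e-04) and 0.16 ± 0.05 in aged cultures (adjusted p = 0.0110), and ranged from 172 to 206 CPM without LPS and from 205 to 239 CPM with it. Polr1b rose by 0.20 ± 0.06 and 0.15 ± 0.06 (adjusted p = 0.00384 and 0.0323), a direction that turned with library sizes alone to -0.02 and -0.01. Polr1c, which RNA polymerases I and III share, measured 70.2, 60.2, 57.4, 56.2 and 65.1 CPM in young untreated and 60.9, 53.7, 53.7, 52.6 and 54.7 CPM in young LPS cultures. It fell by 0.17 on the log2 scale in young (adjusted p = 0.0215) and by 0.22 in aged cultures (adjusted p = 0.00389). Polr1e passed neither test (0.18 ± 0.09 and 0.12 ± 0.09).

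**Figure D3:**
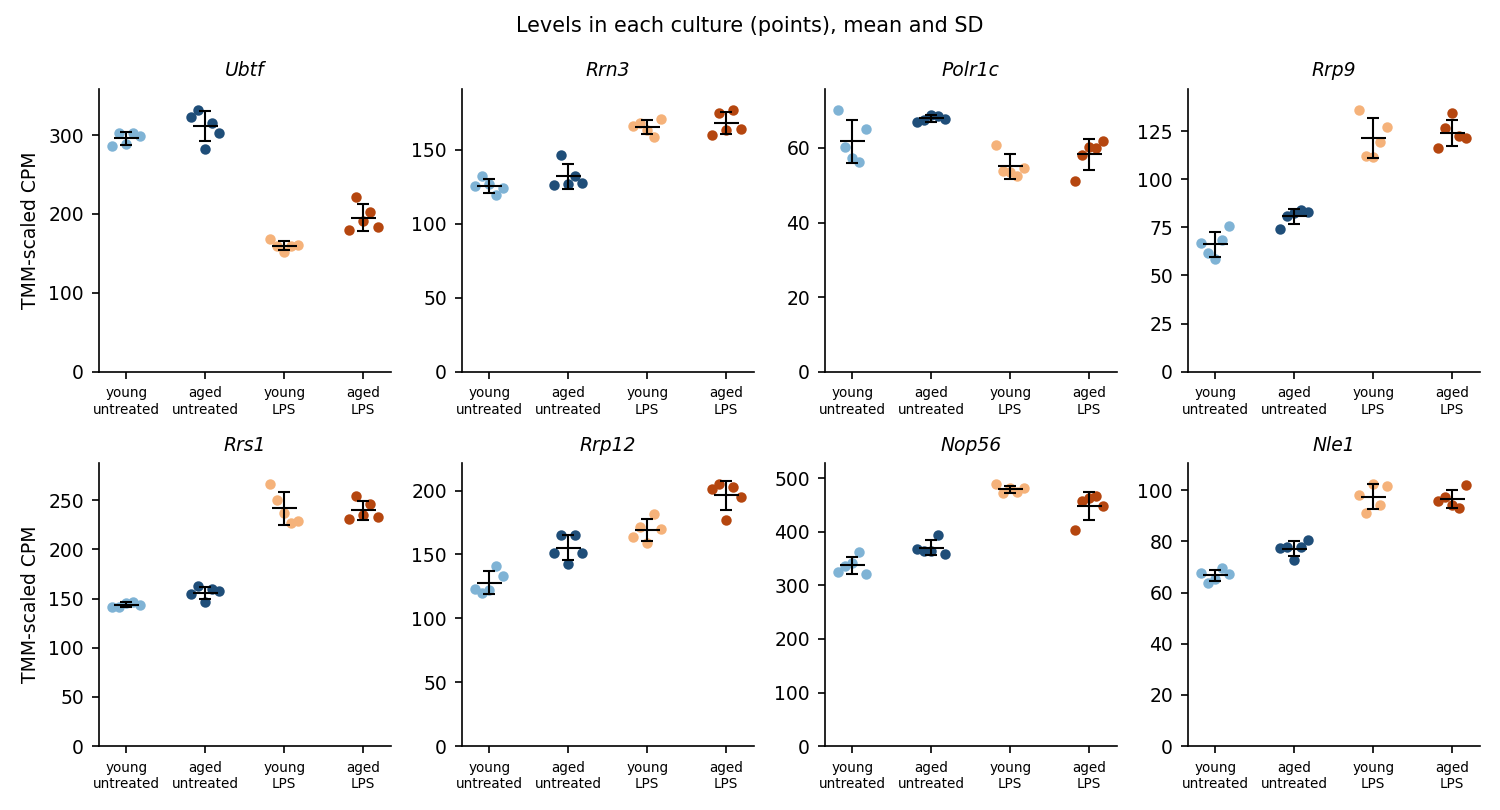
TMM-scaled CPM of 8 members in each culture (points; bars are the group mean and SD, n = 5; the axes start at 0). Ubtf fell and Rrn3, Rrp9, Rrs1, Rrp12, Nop56 and Nle1 rose with LPS, and Polr1c fell slightly.

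In the snoRNP group, Rrp9 had the largest response. It rose in young cultures to 136, 112, 112, 119 and 127 CPM with LPS (0.87 ± 0.07, adjusted p = 1.04e-10) and in aged cultures to 116, 126, 134, 123 and 121 CPM (0.62 ± 0.07, adjusted p = 4.39e-08). The LPS cultures of both ages lay above all untreated ones. Nop56 and Nop58 are core proteins of the box C/D snoRNPs, which guide methylation of ribosomal RNA. Nop58 rose by 0.45 ± 0.05 and 0.35 ± 0.05, from 252 to 307 CPM over the untreated cultures of both ages to 345 to 388 CPM over the LPS cultures. Fbl, the methyltransferase of the same particles, was at 0.07 ± 0.07 and 0.08 ± 0.07 and did not pass the test (adjusted p = 0.393 and 0.355). Nolc1, a snoRNP chaperone, did not pass either, at -0.04 ± 0.04 in both ages.

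In 40S assembly, Ltv1, which is released late from the maturing small subunit, measured 50.2, 50.2, 52.7, 50.3 and 52.6 CPM in young untreated and 75.4, 81.0, 73.3, 78.3 and 79.4 CPM in young LPS cultures (0.60 ± 0.04, adjusted p = 6.63e-11). It rose by 0.46 ± 0.04 in aged cultures (adjusted p = 7.74e-09). Dimt1 rose by 0.59 ± 0.09 and 0.29 ± 0.08 (adjusted p = 2.13e-06 and 0.00532), from 19.2 to 27.2 CPM without LPS to 25.4 to 35.8 CPM with it. The other called members of this role rose by 0.16 to 0.44 in young cultures. Utp3, Utp6 and Heatr1, all of the small subunit processome, were at 0.00 to 0.06 in young and -0.04 to 0.05 in aged cultures and passed neither test.

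In 60S assembly, Rrs1, which helps to bring the 5S ribosomal RNA into the particle, had the largest response. It measured 141, 141, 146, 147 and 144 CPM in young untreated and 266, 251, 237, 226 and 229 CPM in young LPS cultures (0.75 ± 0.05, adjusted p = 2.21e-12). Aged cultures went from 155, 163, 146, 159 and 157 CPM to 231, 254, 235, 246 and 233 CPM (0.62 ± 0.05, adjusted p = 1.08e-10). No LPS culture overlapped an untreated one at either age.

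Ddx18, an RNA helicase, rose by 0.52 ± 0.06 and 0.41 ± 0.06, and the export adaptor Nmd3 by 0.53 ± 0.06 and 0.36 ± 0.06. Bop1, Pes1 and Wdr12 form 1 complex needed for 60S maturation, and in young cultures they rose by 0.43 ± 0.05, 0.23 ± 0.04 and 0.22 ± 0.04. In aged cultures Bop1 and Pes1 were again called higher. Wdr12 was not called there, with a mean of 161 CPM untreated and 171 CPM with LPS. Rrp1b was the 1 member of this role that fell in young cultures, by 0.21 on the log2 scale (adjusted p = 0.0133), with 139, 148, 160, 166 and 141 CPM untreated and 123, 122, 141, 145 and 121 CPM with LPS. The groups overlapped in CPM, and Rrp1b was lower with LPS in all 5 batches. In aged cultures Rrp1b was at -0.14 ± 0.07 (adjusted p = 0.101, and 0.00685 with batch as a block). Gnl3 and Gnl3l, nucleolar GTPases, passed neither LPS test.

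Cell-cycle genes moved beside these responses. Of 14 listed, 10 were called lower with LPS in young cultures (median -0.58) and 8 in aged cultures (median -0.30), and none was called with age in untreated cultures (median 0.01). Over all genes tested, 33.5% were lower with LPS in young and 26.9% in aged cultures, and with age 3.71% were higher and 7.81% lower. The mean of the cell-cycle genes ranged from 7.85 to 7.96 log2 CPM over all untreated cultures, from 7.20 to 7.53 in young LPS and from 7.48 to 7.82 in aged LPS cultures. Their part in the responses of the ribosome biogenesis genes was not tested.

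Microglia markers moved with age beside the members. Of the 12, 3 were lower and none higher in aged untreated cultures (median -0.32), and 5 were lower and 1 higher in aged LPS cultures (median -0.36), each against young cultures with the same treatment. The shares over all genes tested were 7.81% lower and 3.71% higher in untreated and 15.0% and 14.0% in LPS cultures. The mean of the markers was 6.31 ± 0.20 log2 CPM in young untreated, 5.92 ± 0.20 in aged untreated, 5.90 ± 0.14 in young LPS and 5.54 ± 0.29 in aged LPS cultures. Their part in the age differences of the members was not tested.

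Whether the response to LPS differed between the ages was tested as an interaction. Of the 55 members, 50 had a negative value (aged minus young) and the median was -0.10, against 0.02 for all genes. Of the 12799 genes tested, 6893 had a positive value. The edgeR test called 3 lower and 0 higher, where 2.27% of all genes tested were lower and 4.12% higher. Of the 37 members that rose at both ages, 36 had the smaller log2 fold change in aged cultures, Utp20 being the exception, but for most of these the difference itself did not pass the test. How many of all genes that rose at both ages did the same was not counted. The study describes the LPS response of aged cells as weaker beyond these genes, so the count of 36 is not shown to be particular to the members. The interaction is by construction the age difference with LPS minus the age difference in untreated cultures. The members' medians of these were 0.04 and 0.15.

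**Figure D4:**
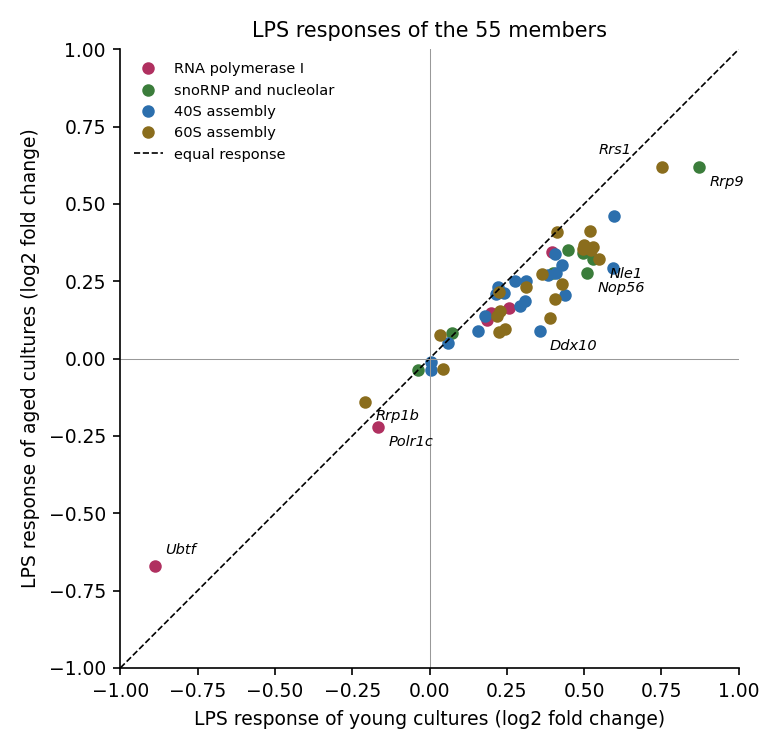
Log2 fold change with LPS of each of the 55 members in young (horizontal axis) and aged cultures (vertical axis), coloured by role, with the dashed line of equal responses. Members that rose lie mostly under the line, and Ubtf lies above it at -0.89 and -0.67.

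The 3 members called were Nop56, Ddx10 and Nle1. Nop56 measured 326, 336, 342, 362 and 321 CPM in young untreated and 489, 473, 482, 474 and 482 CPM in young LPS cultures (0.51 ± 0.04). In aged cultures it measured 368, 364, 364, 394 and 359 CPM untreated and 404, 458, 463, 467 and 448 CPM with LPS (0.28 ± 0.04), a difference between the responses of -0.23 ± 0.06 (adjusted p = 0.0282). With LPS every aged culture lay below every young one (8.16% of all genes tested), although that difference between the ages did not pass its own test (adjusted p = 0.101).

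Ddx10, an RNA helicase of the small subunit pathway, measured 59.4, 63.4, 62.4, 62.4 and 58.5 CPM in young untreated and 80.8, 84.2, 76.0, 72.7 and 78.3 CPM in young LPS cultures (0.36 ± 0.05). In aged cultures it measured 68.9, 71.9, 67.0, 66.3 and 66.5 CPM untreated and 65.2, 74.9, 71.9, 80.2 and 70.2 CPM with LPS (0.09 ± 0.05), and the groups overlapped. The difference was -0.27 ± 0.07 (adjusted p = 0.0338).

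Nle1, which works with the giant ATPase Mdn1 to release factors from 60S particles, measured 67.7, 63.5, 65.4, 69.5 and 67.3 CPM in young untreated and 98.0, 91.2, 102, 94.1 and 102 CPM in young LPS cultures (0.55 ± 0.04). In aged cultures it measured 77.5, 77.8, 72.6, 77.6 and 80.4 CPM untreated and 95.7, 97.3, 94.2, 93.0 and 102 CPM with LPS (0.32 ± 0.04). The difference was -0.23 ± 0.06 (adjusted p = 0.0331). The ages did not overlap in untreated cultures and overlapped with LPS. Mdn1 itself did not pass the interaction test (0.00 ± 0.14).

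With batch as a block, the interaction called 8 members lower (Nop56, Ddx10, Nle1, Ddx21, Wdr43, Bop1, Noc3l and Nip7) and 1 higher, Ubtf (adjusted p = 0.0411), where 3.41% of all genes tested were lower and 5.63% higher. No member was called in the same direction under every alternative, since leaving out replicate 2, 3 or 5 gave 0 calls and leaving out replicate 1 gave 1.

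With LPS present at both ages, 8 members were higher in aged than in young cultures by edgeR and 0 lower, where 14.0% of all genes tested were higher and 15.0% lower, and the median was 0.04 for the members and 0.01 for all genes. Ubtf had the largest difference (0.29 ± 0.05, adjusted p = 2.76e-04), and all aged LPS cultures, from 179 to 221 CPM, lay above all young LPS cultures, from 151 to 168 CPM (6.69% of all genes tested). Rrp12 followed at 0.21 ± 0.06 (adjusted p = 0.00580), with 163, 171, 159, 181 and 170 CPM in young and 201, 205, 177, 203 and 195 CPM in aged LPS cultures. The others were Rrp1b, Utp20, Nob1, Utp15, Wdr75 and Nolc1, by 0.12 to 0.20.

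The members higher with age in both untreated and LPS cultures were 5, namely Rrp12, Utp20, Nob1, Utp15 and Wdr75, where 1.95% of all genes tested were higher in both. The other 17 of the 22 passed the test only without LPS, which does not show that their age differences changed. The count of 8 was 2 without replicate 2 (Ubtf and Rrp12 were called each time a replicate was left out) and 24 with library sizes alone. Of the 14 cell-cycle genes, 8 were called higher in aged than in young LPS cultures (median 0.25), where 14.0% of all genes tested were higher. The part of the cell-cycle genes in these differences was not tested.

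A further 105 genes of the same pathway that are not members were read from the same fit. With age in untreated cultures, 26 were higher and 0 lower (42 and 1 with batch as a block), with 12 of 30 in 40S assembly, 5 of 40 in 60S assembly, 4 of 11 in the exosome, 3 of 11 in RNA polymerase I and 2 of 13 in the snoRNP group. Among all genes tested, 3.71% were higher and 7.81% lower, and 6% were higher with the block. Leaving out replicate 2 reduced the count of 26 to 3. Examples were Nat10, an RNA acetyltransferase (0.25 ± 0.05, adjusted p = 0.00181), Dis3, an exosome nuclease (0.23 ± 0.05, adjusted p = 0.00609), and Taf1a, of the factor SL1 that works beside UBF (0.26 ± 0.06, adjusted p = 0.0126).

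With LPS, 58 of these 105 genes were higher and 11 lower in young (median 0.17) and 46 higher and 8 lower in aged cultures (median 0.11). Of all genes tested, 31.2% were higher and 33.5% lower in young and 27.5% and 26.9% in aged cultures. Riok3, a kinase of small subunit maturation that also acts in innate immune signalling, rose by 1.65 ± 0.07 and 1.40 ± 0.07. Ddx24, a helicase, rose by 1.23 ± 0.05 and 0.80 ± 0.05, and Tcof1, a partner of UBF, by 0.56 ± 0.05 and 0.46 ± 0.05. Sbds, which frees the large subunit for translation, rose by 1.00 ± 0.07 in young and 0.52 ± 0.07 in aged cultures, and its response was smaller in aged cultures (-0.48 ± 0.10, adjusted p = 0.00709). The exosome subunit Exosc8 fell at both ages, by 0.43 and 0.30 on the log2 scale. In all, the interaction was lower in 6 of the 105 and higher in none (2.27% and 4.12% of all genes tested). It was lower in 8 with batch as a block, and 1 to 4 of the 105 were called when a replicate was left out.

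RNA polymerase III, which makes 5S ribosomal RNA and transfer RNA, was listed separately with 21 genes. With LPS, 5 were higher and 9 lower in young (31.2% and 33.5% of all genes tested) and 3 higher and 9 lower in aged cultures (27.5% and 26.9%). The highest fold change was that of Polr3d, a subunit, at 0.99 ± 0.06 and 0.76 ± 0.06. Lower ones included Polr3gl, a subunit variant (-1.08 ± 0.09 and -0.69 ± 0.09), Maf1, the repressor of the enzyme (-0.90 ± 0.08 and -0.81 ± 0.08), and Gtf3a, the factor specific to 5S genes (-0.56 ± 0.05 and -0.32 ± 0.05).

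Of 12 genes of the MYC network, 10 passed the filter. Myc measured 3.10, 3.07, 4.11, 3.96 and 3.53 CPM in young untreated and 9.88, 9.54, 12.1, 9.85 and 8.99 CPM in young LPS cultures (1.5 ± 0.12, adjusted p = 2.58e-10). In aged cultures it measured 2.91, 3.16, 3.54, 2.86 and 2.66 CPM untreated and 8.50, 6.76, 9.45, 9.52 and 9.40 CPM with LPS (1.53 ± 0.12, adjusted p = 5.06e-10). Myc did not pass the test with age in untreated cultures (-0.23 ± 0.13, adjusted p = 0.294). Counts do not report the retroviral myc of the line separately.

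Of the 10 tested, 4 were higher and 4 lower with LPS in young and 4 higher and 3 lower in aged cultures, where 31.2% and 33.5% of all genes tested were so in young and 27.5% and 26.9% in aged cultures. The higher ones were Myc, its partner Max (0.68 ± 0.04 and 0.35 ± 0.04), Mlx and Mxd1 (1.73 ± 0.27 and 1.15 ± 0.29). Mxd1 measured 11.7, 12.0, 34.6, 13.2 and 11.5 CPM in aged LPS cultures, against 6.46 to 8.41 CPM in aged untreated ones. Its value in aged cultures thus rests in part on culture 3, and young LPS cultures ranged from 23.0 to 60.3 CPM. Among the other genes whose proteins are known to oppose MYC, Mxi1 was at -1.49 ± 0.06 in young and -0.95 ± 0.06 in aged cultures, Mxd4 was at -3.27 ± 0.20 and -2.52 ± 0.22, and Mxd3 at -3.08 ± 0.25 and -2.12 ± 0.21. Mnt was lower in young cultures (-0.61 ± 0.14) and passed no test in aged ones (-0.20 ± 0.14), and Mga passed neither (-0.12 ± 0.08 and -0.03 ± 0.08). In untreated cultures, Mxd4 was also lower with age (-1.17 ± 0.16, adjusted p = 5.56e-05), as was Mxi1 (-0.19 ± 0.06, adjusted p = 0.0428).

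Reads that could belong to other genes were a limit for a few members. Near-identical copies (at least 95% identity over 300 bases) exist for 9 members, and no copy held over 3.92% of its member's CPM, the highest being that of Fbl. How reads matching both a member and its copy were handled is not given in the sources used here. These shares therefore do not show how many member reads were lost. Exons of genes on the same strand cover 8.0% of the exonic bases of Nop56, the most of any member. Exons of genes on the opposite strand cover 32.3% of the exonic bases of Tsr1 (by Srr), 31.9% of Dimt1 (by Kif2a) and 20.9% of Noc2l (by Samd11), and whether counting used strand is not given in the sources used here. The 6 members called in none of the 5 comparisons were Polr1e, Fbl, Utp3, Utp6, Heatr1 and Gnl3l.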

How the data were processed

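The authors prepared stranded poly(A) libraries from BV-2 cultures described as independent replicates, aligned reads to GRCm38 with STAR 2.6.1d and counted them per gene with featureCounts 1.5.1, per the labels and the study's methods. They deposited raw counts, and all sample columns were used. Strand and overlap settings of the counting are not given in the sources used here. The 55 members, the other gene lists and the tests were chosen with earlier results of these data known. Members were named if of RNA polymerase I, if among the 2 called with the largest absolute log2 fold change per role and comparison, or if called against the median direction of their role. Of the other genes, Myc and the called gene with the largest change per list and comparison were named. Further genes named with values were chosen after their values were seen.

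Counts were tested with edgeR 4.0.16 (limma 3.58.1, R 4.3.3): TMM, filterByExpr, 1 quasi-likelihood fit over all 20 libraries with the group as the factor, and Benjamini-Hochberg adjustment over 12799 genes, with calls at adjusted p below 0.05. Log2 CPM used a prior count of 2. Replicate numbers are batch numbers in the labels, so a fit with batch as a block was run, and same-numbered cultures correlated in their deviations from the group means by 0.146 on average (-0.214 to 0.394). Between untreated and LPS cultures the mean was 0.276 in young and 0.260 in aged cells. Between the ages it was only 0.111 in untreated and 0.042 in LPS cultures, so little shared batch effect was seen in the age comparisons. Alternatives were DESeq2 1.42.0, other scalings, no filter, a stricter threshold and leaving out each replicate. The fits were tested on simulated counts for aged against young untreated cultures. Without the block, edgeR recovered 53 of 100 genes changed by 1.25 fold and 99 of 100 changed by 2 fold, with 13 false calls. Changes of the size seen in the members with age can therefore go uncalled. The changed genes were not matched to the members in level and no batch effect was simulated, so these rates are not those of the members. Promoters are from RefSeq. P-values measure the spread between these cultures of 1 line.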

Additional observations from a re-analysis of the deposited data

Results flagged for a closer look

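Among 92 sets of 5 cultures examined for a single distant value (23 members in 4 groups), 4 had one, and chance alone gives about 1 in 20. Nop56 was highest in aged untreated culture 4, at 8.62 log2 CPM against a group median of 8.51, and lowest in aged LPS culture 1, at 8.66 against 8.84. Polr1c was highest in young LPS culture 1, at 5.93 against 5.75, and Rrp9 lowest in aged untreated culture 1, at 6.21 against 6.36.

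The response to LPS differed between the ages by the interaction test of edgeR for Nop56 (-0.23 aged minus young on the log2 scale, adjusted p = 0.0282), Ddx10 (-0.27, adjusted p = 0.0338) and Nle1 (-0.23, adjusted p = 0.0331). These calls were lost when replicate 2, 3 or 5 was left out.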

How the results depend on the processing

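Every member had at least 260 reads in every library. Members called with age in untreated cultures numbered 22, 14 without a filter on low counts, 9 at adjusted p below 0.01 and 4 to 19 when a replicate was left out. For the 105 other pathway genes the 26 calls became 10, 4 and 3 to 19, and 43 with the replicate block. Leaving out young untreated culture 1 or aged LPS culture 3 alone, alternatives chosen after seeing the data, gave 17 and 22 members and 17 and 27 other pathway genes. The aged LPS culture is not in this comparison and bears on it only through the shared fit. Over all 5 comparisons, leaving it out kept direction and call for 114 values of named members and lost 1 call. Without young untreated culture 1, 109 were kept, 5 calls were lost and 1 was gained. With LPS at both ages, the 8 members became 24 with library sizes alone, 5 without a filter, 2 at adjusted p below 0.01 and 2 to 12 when a replicate was left out, and the 21 other pathway genes became 50, 13, 9 and 5 to 23. The interaction called 3 members, but 8 with DESeq2, 9 with the replicate block, 1 with library sizes alone, 0 without a filter or at adjusted p below 0.01, and 0 to 2 when a replicate was left out; the 6 other pathway genes became 3 with library sizes alone, without a filter or at adjusted p below 0.01, and 1 to 4. With library sizes alone the median member change with LPS was 0.0911 in young and 0.0531 in aged cultures and the median interaction -0.0341, and Polr1b turned to -0.0209 (young) and -0.0131 (aged) and Utp20 to -0.000515 (young). The cause of these moves was not tested, beyond the fewer samples or the stricter threshold itself. The LPS counts stayed between 43 and 47 in young and 38 and 40 in aged cultures without any 1 replicate. The replicate block lost no member's call, and beside the calls it added with age and in the interaction it added calls for Emg1, Noc2l, Nip7 and Rrp1b with LPS in aged cultures and for Utp18 and Gnl3 with age under LPS. Of 1587 values of named members under an alternative, 1469 kept direction and call, 75 lost a call, 40 gained one and 3 reversed.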
